A study of Mus musculus with 4 samples.

Results

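The heat shock chaperones examined here are 9 genes, taken as the rows of the expression table whose symbol is Hspa1a, Hspa1b, Hspa5, Hspa8, Hsp90aa1, Hsp90ab1, Hspb1, Dnajb1 or Hsph1. All 9 were found among the 17778 genes of the table, each in 1 row. Messenger RNA had been sequenced from the medial prefrontal cortex (mPFC) of mice of the inbred strain C57BL/6 (C57BL/6J in the methods of the study). By the same methods they were males that were juvenile at the start of the experiment, several weeks before tissue was taken. The CUMS group (2 libraries) came from mice put through chronic unpredictable mild stress (CUMS), a schedule of changing mild stressors that lasted several weeks, and only mice that showed depression-like behavior in all of the behavior tests were used. The control group (2 libraries) came from mice without this treatment. No genotype or drug treatment was given for either group, and tissue was taken a day after the behavior tests. The values are RPKM, read numbers divided by gene length in kilobases and by library size, which allow levels of different genes to be compared per length. Because 1 mean per gene and group was deposited, no value of a single library or mouse could be shown, no difference below was set against the spread between mice, and no p-value was computed.

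Heat shock chaperones bind unfolded or unfinished proteins and help them fold, keep them from clumping or pass them on for breakdown. Some are made at high levels in every unstressed cell, while others are nearly silent until the transcription factor HSF1 is released by unfolded proteins and binds heat shock elements in their promoters. In the endoplasmic reticulum (ER) a separate program, the unfolded protein response, raises its own chaperones through ER stress elements. HSP70 proteins work in a cycle with J-domain proteins that deliver substrates and with exchange factors that release them, HSP90 proteins take over many signaling proteins from HSP70, and small heat shock proteins hold unfolded proteins without using ATP.

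The comparison asked whether these genes were expressed at another level in the mPFC of depression-like mice after CUMS than in control mice. The mean was lower in CUMS in 8 of 9 genes and higher in 1. Of the stress-inducible genes, Hspa1a, Hspa1b and Hspb1 were lower by 40.0% to 44.6% and the cochaperone Dnajb1 by 21.0%. The ER chaperone Hspa5 was lower by 16.3% and the exchange factor Hsph1 by 10.1%. The most abundant chaperones differed least, by 5.24% in the constitutive Hspa8 and 1.61% in the inducible Hsp90aa1 (both lower) and by 0.790% in the constitutive Hsp90ab1 (higher). The inducible genes thus ranged from 1.61% lower in Hsp90aa1 to 44.6% lower in Hspa1b. In bulk tissue, fewer cells of a type and less RNA per cell cannot be told apart.

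Levels spanned a wide range. In control mice the highest member, Hspa8, stood 135-fold above the lowest, Hspa1a. The order from high to low was Hspa8, Hsp90ab1, Hsp90aa1, Hspa5, Hsph1, Dnajb1, Hspb1, Hspa1b and Hspa1a, and it was the same in both groups. Hspa8 ranked 12 of 17778 genes by its control mean, Hsp90ab1 37 and Hsp90aa1 319, whereas Hspb1 ranked 6117, Hspa1b 7413 and Hspa1a 7696. Which neighbours in this order differ beyond the spread between mice was not tested, for want of values per library.

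**Figure D1:**
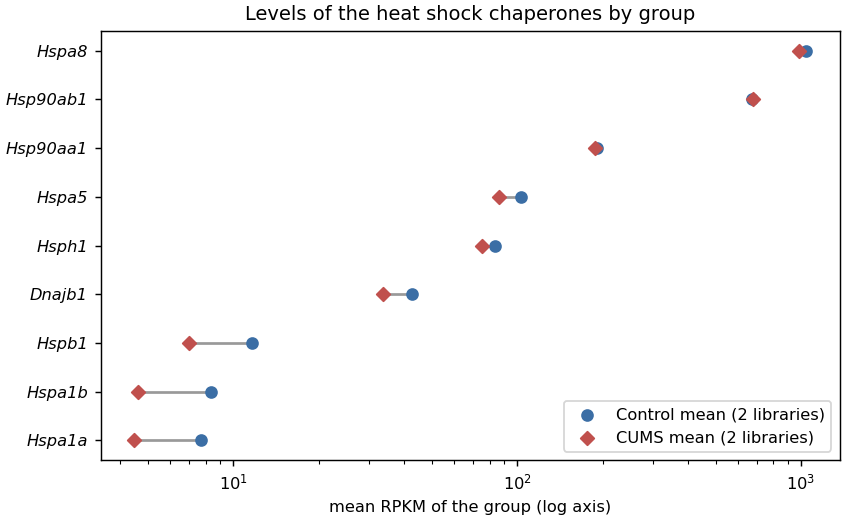
Mean RPKM of each heat shock chaperone (log axis) in control (circles) and CUMS (diamonds), each point 1 deposited mean of 2 libraries, with a line joining the 2 means of a gene. The gap between the groups is wide for Hspa1a, Hspa1b and Hspb1 and not visible for Hsp90ab1, at 674 RPKM in control and 679 RPKM in CUMS.

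Hspa1a and Hspa1b encode the stress-inducible cytosolic HSP70, and they lie beside each other on chromosome 17 (GRCm38 chr17:34969359-34972156 for Hspa1a and chr17:34956429-34959238 for Hspa1b). Hspa1a had 7.74 RPKM in control mice and 4.49 RPKM after CUMS. The log2 ratio of CUMS over control was -0.79, with a 95% interval of -1.05 to -0.52 that covers counting error only. Hspa1b had 8.33 RPKM in control and 4.62 RPKM in CUMS, a log2 ratio of -0.85 (-1.11 to -0.59). It was the lowest ratio of the 9 genes. Both copies were thus lower in CUMS, 1.72-fold and 1.80-fold, beyond the counting error of the estimated reads.

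The copies share much of their sequence, and the study counted uniquely aligned reads, so that reads from shared stretches may have been lost. Of the stretches of 100 bases in the Hspa1a transcript, 47.1% occurred unchanged in a Hspa1b transcript, and of those of Hspa1b 49.9% occurred in Hspa1a. Their separate levels are therefore uncertain. Their sum depends less on how reads were split, but it may be understated too. The sum came to 16.1 RPKM in control mice and 9.10 RPKM in CUMS mice, from an estimated 668 and 382 fragments, and its log2 ratio was -0.82 (-1.003 to -0.635). The level of Hspa1a over that of Hspa1b was 0.929 in control and 0.972 in CUMS.

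The promoters of both genes are shown because these genes had the lowest ratios of the 9, together with that of Hspb1, which also passed 1.5-fold. Each line gives the 250 bases before the gene's start in the sense direction, from the RefSeq promoter table of GRCm38.p6. Hspa1a covers chr17:34972157-34972406 and Hspa1b chr17:34959239-34959488, both on the minus strand, and Hspb1 covers chr5:135887669-135887918 on the plus strand. Capitals mark a heat shock element of 2 units, GAANNTTC or TTCNNGAA, each of which reads the same on both strands.
Hspa1a: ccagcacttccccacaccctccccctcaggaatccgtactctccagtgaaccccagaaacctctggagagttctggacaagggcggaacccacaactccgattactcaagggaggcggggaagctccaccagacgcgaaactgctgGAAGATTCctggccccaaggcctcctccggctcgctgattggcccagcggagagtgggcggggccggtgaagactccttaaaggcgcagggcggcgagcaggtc
Hspa1b: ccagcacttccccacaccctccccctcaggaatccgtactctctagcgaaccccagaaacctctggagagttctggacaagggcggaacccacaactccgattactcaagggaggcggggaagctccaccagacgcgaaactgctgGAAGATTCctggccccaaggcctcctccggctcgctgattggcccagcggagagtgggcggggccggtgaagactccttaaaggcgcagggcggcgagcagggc
Hspb1: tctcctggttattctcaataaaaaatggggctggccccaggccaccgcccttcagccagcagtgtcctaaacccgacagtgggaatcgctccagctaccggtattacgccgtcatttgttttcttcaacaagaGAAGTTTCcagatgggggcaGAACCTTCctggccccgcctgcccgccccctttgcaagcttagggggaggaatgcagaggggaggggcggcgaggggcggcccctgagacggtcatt
The windows of Hspa1a and Hspa1b differed at 3 of 250 positions, an identity of 98.8%. Each held 1 element, GAAGATTC, which lay 97 to 104 bases before the start. Hspb1 held 2 elements, GAAGTTTC at 110 to 117 and GAACCTTC at 90 to 97 bases before its start. An element of 2 units occurred in 12.8% of the 32851 promoter windows of the table, so that a match alone is common. The longer element of 3 alternating units, found in 0.466% of all windows, was in none of the windows of these chaperones. Of the 9 genes, 6 had a window in the table. Hsph1 held 1 element, TTCTCGAA, 26 to 33 bases before the first of its starts, and Dnajb1 and Hspa5 held none of this kind. Hspa8, Hsp90aa1 and Hsp90ab1 were not among the windows. The letters TATAAA, present in 7.59% of all windows, were in none of those of the 6 genes. A match describes the letters only and shows no binding.

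Hspa8 encodes HSC70, the constitutive HSP70 of the cytosol, which also strips clathrin coats from synaptic vesicles. It had 1041 RPKM in control and 987 RPKM in CUMS, a log2 ratio of -0.08 (-0.10 to -0.06). The narrow interval reflects an estimated 32528 and 31077 fragments, the largest numbers among the 9 genes. Set against Hspa8, the inducible copies Hspa1a and Hspa1b together made up 15.4 RPKM per 1000 RPKM of Hspa8 in control and 9.22 in CUMS. The constitutive form was therefore 64.8 times the inducible one in control and 108 times in CUMS. Of the stretches of 100 bases in Hspa8, 68.0% also occurred in the pseudogene Gm15459, so that its level may be understated where only uniquely aligned reads were counted. The same holds for Hspa1a and Hspa1b, so that the multiples of 64.8 and 108 are uncertain. The span also holds the small nucleolar RNA genes Snord14c, Snord14d and Snord14e.

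Hspa5 encodes BiP (GRP78), the HSP70 of the ER and a main target of the unfolded protein response. It had 103 RPKM in control and 86.3 RPKM in CUMS, a log2 ratio of -0.26 (-0.32 to -0.19). Its difference of -16.8 RPKM was the second largest among the 9 genes after that of Hspa8, -54.6 RPKM. No stretch of 100 bases of its transcript occurred in another gene. Its gene, chr2:34772090-34776529, overlaps Rabepk, which had 11.1 RPKM in control and 9.71 RPKM in CUMS. How strand was used in counting was not stated, and reads from the overlap could have gone to either.

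The promoter of Hspa5 is shown because its known element is of another kind than those above. The window is chr2:34771840-34772089 on the plus strand, and capitals mark an ER stress element, which is CCAAT and CCACG set 9 bases apart, searched on both strands.
Hspa5: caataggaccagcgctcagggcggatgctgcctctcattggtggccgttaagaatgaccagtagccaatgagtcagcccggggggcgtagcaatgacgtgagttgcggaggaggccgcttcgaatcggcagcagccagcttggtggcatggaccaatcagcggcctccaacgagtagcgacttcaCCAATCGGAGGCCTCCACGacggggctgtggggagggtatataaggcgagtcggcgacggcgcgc
The element lay 47 to 65 bases before the start. It occurred in 0.113% of all windows of the table and in no other window of the 6 chaperones.

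Hsp90aa1 and Hsp90ab1 encode the cytosolic HSP90 proteins, the first of them stress-inducible and the second constitutive. Hsp90aa1 had 191 RPKM in control and 188 RPKM in CUMS, a log2 ratio of -0.02 (-0.07 to 0.02). Hsp90ab1 had 674 RPKM in control and 679 RPKM in CUMS, a log2 ratio of 0.01 (-0.01 to 0.04). Both intervals include 0, and their bounds limit counting error to a few percent in either direction. The level of Hsp90aa1 per 1000 RPKM of Hsp90ab1 was 284 in control and 277 in CUMS. The transcript of Hsp90aa1 shared 53.2% of its stretches of 100 bases with other genes, mostly the pseudogene Gm12346, and Hsp90ab1 shared none.

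Hspb1 encodes HSP25, a small heat shock protein that holds unfolded proteins and binds the cytoskeleton. It had 11.7 RPKM in control and 7.01 RPKM in CUMS, a log2 ratio of -0.74 (-1.11 to -0.36). This interval is the widest of the 9, since an estimated 158 and 96 fragments lie behind the means. The pseudogene Hsp25-ps1 holds 56.3% of the stretches of 100 bases in its transcript.

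Dnajb1 encodes HSP40, a J-domain protein that delivers substrates to HSP70, and Hsph1 encodes HSP105, an exchange factor of the HSP110 group. Dnajb1 had 42.7 RPKM in control and 33.8 RPKM in CUMS, a log2 ratio of -0.34 (-0.45 to -0.23). Hsph1 had 83.9 RPKM in control and 75.4 RPKM in CUMS, a log2 ratio of -0.15 (-0.22 to -0.09). Both partners of HSP70 were lower in CUMS by more than counting error. Per 1000 RPKM of Hspa8, Dnajb1 stood at 41.1 in control and 34.2 in CUMS, and Hsph1 at 80.5 and 76.4.

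**Figure D2:**
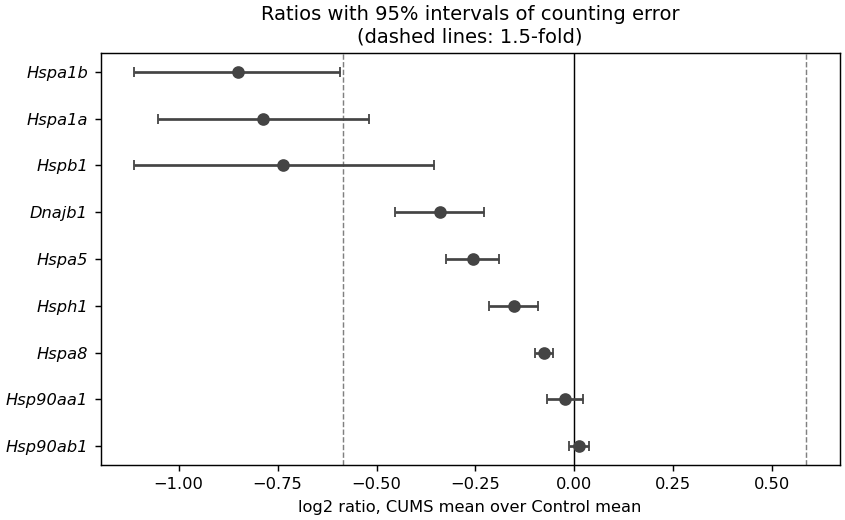
Log2 ratio (CUMS over control) of each heat shock chaperone, with bars for the 95% interval of counting error and dashed lines at 1.5-fold. Hspa1b, Hspa1a and Hspb1 lie beyond the lower dashed line, from -0.85 to -0.74, and the bars of Hsp90aa1 and Hsp90ab1 cross 0.

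Among the 9 genes, 3 passed 1.5-fold, and all 3 were lower in CUMS. The study used this fold together with a probability from the NOISeq method, which was not used here. It lists none of the 9 genes among its changed mRNAs. Of the 14257 genes that reached 0.5 RPKM in 1 group or both, 7.2% passed 1.5-fold in either direction and 4.42% were lower by that much. Because low levels scatter more, the genes were also read against others of like level. In genes whose larger mean was 5 to 20 RPKM, 1.83% were lower by over 1.5-fold. The members of this band were Hspa1a, Hspa1b and Hspb1, and all 3 were lower by that much. Hspa1a and Hspa1b share much of their sequence, so these are not 3 independent genes. The bands were set after the data had been seen. In genes of at least 20 RPKM the share was 0.596%, and 0 of the other 6 chaperones were lower by that much.

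By counting error, 7 of 9 intervals lay wholly below 0, none above, and 2 included 0. Among all 14257 genes 16.8% of intervals lay below 0, and among genes of at least 20 RPKM 21.0% did, where 4 of 6 chaperones did. The median log2 ratio of the 9 genes was -0.26, against -0.02 over all genes, of which 53.3% of those with unequal means were lower in CUMS. The summed level differed less, with 2164 RPKM in control and 2065 RPKM in CUMS (log2 ratio -0.07), because Hspa8 and the HSP90 genes make up most of it. These counts describe 2 group means and are no test of the list.

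**Figure D3:**
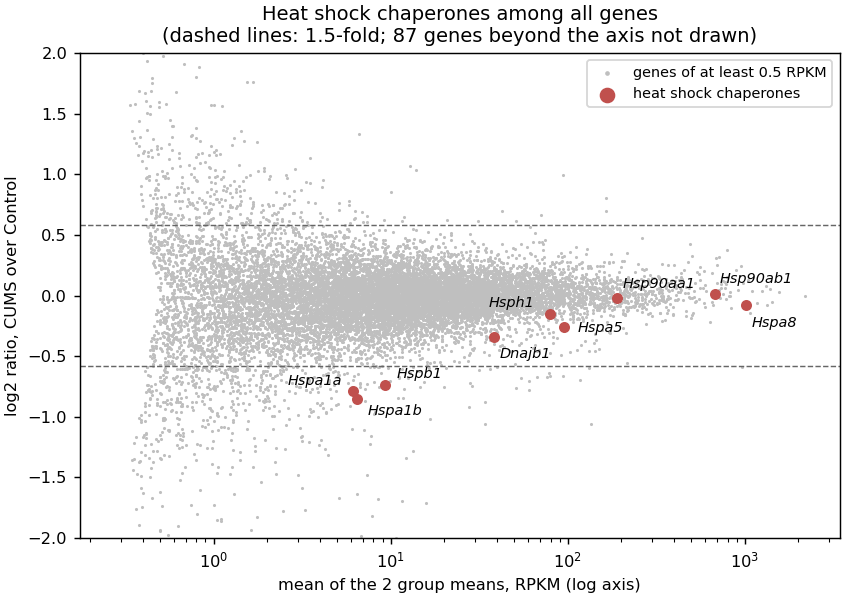
Log2 ratio of CUMS over control against the mean of both group means in RPKM (log axis) for genes of at least 0.5 RPKM (grey), with the 9 heat shock chaperones in red and dashed lines at 1.5-fold. Hspa1a, Hspa1b and Hspb1 lie below the lower dashed line, at -0.79, -0.85 and -0.74, where few genes of like level lie, and Hspa8 and the HSP90 genes lie at the right end near 0.

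Other genes of the chaperone network were read from 8 further lists, which held 96 genes of at least 0.5 RPKM. Of these, 48 were lower and 48 higher in CUMS, 1 was lower by over 1.5-fold and 1 was higher. Counting intervals lay below 0 for 18 and above 0 for 14. Among all 14257 genes, 4.42% were lower by over 1.5-fold and 16.8% of intervals lay below 0. The network outside the 9 genes was thus evenly divided in direction.

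In the small heat shock protein family, the list closest to Hspb1 in function, 4 of 6 genes were lower and 2 higher, with a median of -0.42 (genes of at least 0.5 RPKM). Cryab, which encodes alpha-B crystallin, had 64.7 RPKM in control and 38.1 RPKM in CUMS (log2 ratio -0.76, -0.90 to -0.63), and it is the gene of the network that was lower by over 1.5-fold. The study itself lists Cryab as lower, so that its value is no independent result. Hspb8, whose protein works with BAG3, had 9.44 RPKM in control and 6.39 RPKM in CUMS (-0.56, -0.85 to -0.28). Of the 6, the least expressed was Hspb2, which had 0.490 and 0.635 RPKM and an interval from -1.31 to 2.21, so that its direction was not detectable at this depth. The intervals of Hspb3, Hspb6 and Hspb11 also include 0. Of the 6 intervals, 2 lay below 0, those of Cryab and Hspb8, and none above.

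The other HSP70 genes were divided in direction, unlike Hspa1a and Hspa1b, which were both lower. Of 10 genes, 4 were lower and 6 higher, none passed 1.5-fold, and the median was 0.05. The values ran from -0.26 in Hspa13, an HSP70 relative of microsomes, to 0.21 in Hspa12a. Hspa9, the mitochondrial HSP70, had 52.7 RPKM in control and 56.6 RPKM in CUMS (0.10, 0.02 to 0.18). Of the other HSP90 genes, the ER form Hsp90b1 had 71.1 and 65.4 RPKM (-0.12, -0.20 to -0.04), and the mitochondrial form Trap1 had 31.1 and 33.2 RPKM (0.10, -0.02 to 0.22).

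Among the J-domain proteins of classes A and B apart from Dnajb1, 7 of 13 were lower and 6 higher. Values ran from -0.22 in Dnajb2 to 0.86 in Dnajb3, the gene of the network that was higher by over 1.5-fold, although its means of 0.830 and 1.51 RPKM rest on an estimated 13 and 23 fragments and its interval, -0.23 to 1.92, includes 0. Dnaja1, a cytosolic partner of HSC70, had 32.2 RPKM in control and 33.0 RPKM in CUMS (0.04). In class C, 11 of 25 were lower and 14 higher, from -0.26 in Dnajc28 to 0.48 in Dnajc4. The chaperonins, ring-shaped folding machines, had 5 of 10 lower and 5 higher, between -0.18 in Cct3 and 0.14 in Tcp1. Their mitochondrial members Hspd1 (HSP60) and Hspe1 (HSP10) had log2 ratios of 0.05 and -0.08, with intervals that include 0.

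Of 14 cochaperones of HSP70, 7 were lower and 7 higher. The lowest was Stip1, encoding HOP, which links HSP70 to HSP90, with 90.6 RPKM in control and 73.7 RPKM in CUMS (-0.30, -0.38 to -0.22). The highest was Sgtb, with 36.5 and 49.0 RPKM (0.42, 0.33 to 0.52). Bag3, an HSF1 target, had 3.27 and 3.11 RPKM (-0.07, -0.45 to 0.29).

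Of 16 cochaperones of HSP90, 9 were lower and 7 higher. Fkbp4, an immunophilin of steroid receptor complexes, was the lowest, with 72.7 RPKM in control and 53.9 RPKM in CUMS (-0.43, -0.52 to -0.34), and Cacybp the highest (0.17). Fkbp5, the glucocorticoid-induced counterpart of Fkbp4, had 11.8 and 10.6 RPKM (-0.15, -0.31 to 0.01), and Chordc1 had 14.6 and 13.2 RPKM (-0.15, -0.34 to 0.04).

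The intervals of Hsf1 and Hsf2 include 0, and that of Hsbp1 lies above it. Hsf1, the main activator, had 21.0 RPKM in control and 18.8 RPKM in CUMS (-0.16, -0.32 to 0.01), and Hsf2 had 8.07 and 7.73 RPKM (-0.06, -0.29 to 0.17). Hsbp1 encodes a protein that binds HSF1 and is not itself a heat shock factor. It had the highest ratio of the 4 genes at 0.5 RPKM or more in the heat shock factor list, with 174 and 189 RPKM (0.12, 0.05 to 0.19). These are RNA levels, and the activity of HSF1 was not measured.

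In a list of 22 genes that HSF1 is known to induce, none of them among the 9, 17 were lower in CUMS and 5 higher, with a median of -0.09. Cryab, which the study already lists as lower, was the 1 gene past 1.5-fold, and 11 counting intervals lay below 0 and 3 above. Over all genes, 4.42% were lower by over 1.5-fold and 16.8% of intervals lay below 0. The ER unfolded protein response list, to which Hspa5 is related, had 23 of 27 genes lower and 4 higher, with a median of -0.15. In it Derl3, of ER-associated degradation, had 1.72 and 0.995 RPKM (-0.79, -1.65 to 0.06), and Sdf2l1, a partner of BiP, had 10.4 and 6.89 RPKM (-0.59, -0.95 to -0.24). Both were lower by over 1.5-fold, Derl3 with an interval that includes 0. The highest of the list was Dnajc10, with 17.0 and 19.1 RPKM (0.17, 0.05 to 0.29).

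**Figure D4:**
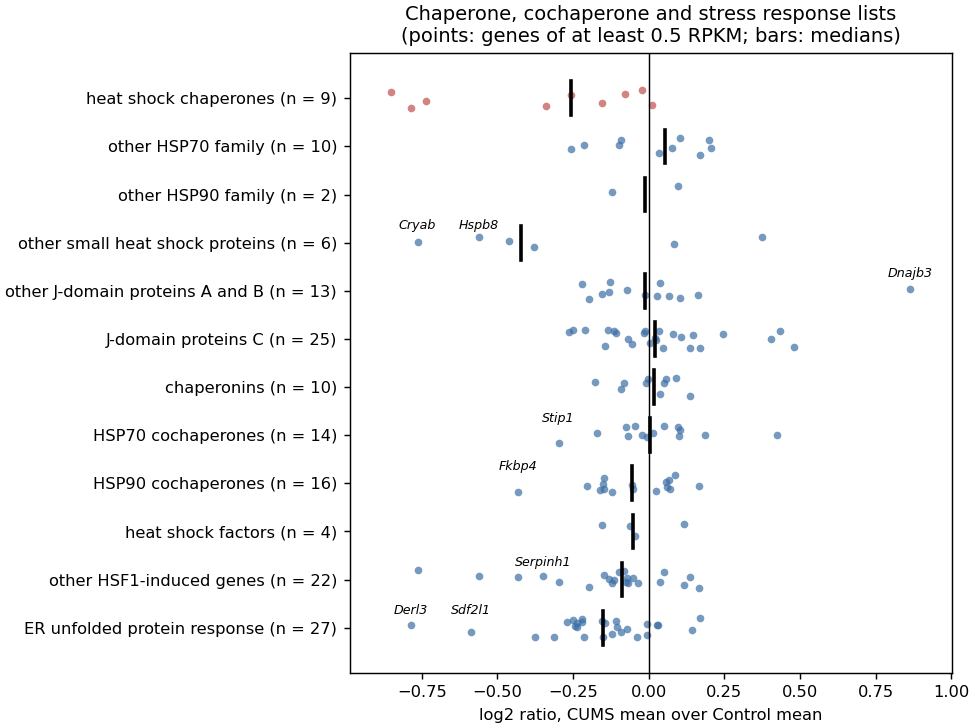
Log2 ratio of CUMS over control for genes of at least 0.5 RPKM in each chaperone, cochaperone and stress response list, with 1 point per gene and a bar at each median. The medians of the heat shock chaperones (-0.26) and the other small heat shock proteins (-0.42) lie left of 0, and most other families are spread on both sides of it. Some genes are in more than 1 list.

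Marker lists of the tissue also differed between the group means, and their part in the chaperone values was not tested. Immediate early genes, which neuronal activity induces, were lower in 17 of 17, with a median of -0.56 and a sum of 845 RPKM in control and 543 RPKM in CUMS. Myelin and oligodendrocyte markers were lower in 13 of 15 (median -0.45, sums of 2029 and 1397 RPKM). Cryab is also known as a gene of oligodendrocytes, and Hspb1 as one of vessel walls. Septum and hypothalamus markers were lower in 14 of 14 (median -1.71, sums of 233 and 110 RPKM) and striatum markers in 11 of 11 (-0.30, 572 and 471 RPKM). Many of the septum and hypothalamus markers, such as Zic1, Dlk1 and Magel2, are genes that the study itself lists as lower. Their count and median are therefore no independent result. Some immediate early genes and myelin markers, such as Fos and Mbp, are in the study's list too.

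Neocortical excitatory neuron markers were present in both groups and higher in CUMS in 11 of 12 (median 0.32, sums of 2315 and 2848 RPKM). Red blood cell markers were higher in 7 of 8 (0.75, 557 and 861 RPKM). Several of them, such as Hba-a1 and Hbb-b1, are genes that the study itself lists as higher. The count and median of this list are therefore no independent result either. Endothelial and mural markers were lower in 5 of 12 and higher in 7 (0.01, 144 and 127 RPKM), and the tight junction gene Cldn5 alone among them passed 1.5-fold (38.1 and 25.0 RPKM). Astrocyte markers were lower in 5 of 10 (-0.01, 1052 and 991 RPKM), and microglia markers in 3 of 8 (0.08, 183 and 191 RPKM). No list had a marker listed at 0.01, the value that stands for 0, in both groups.

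**Figure D5:**
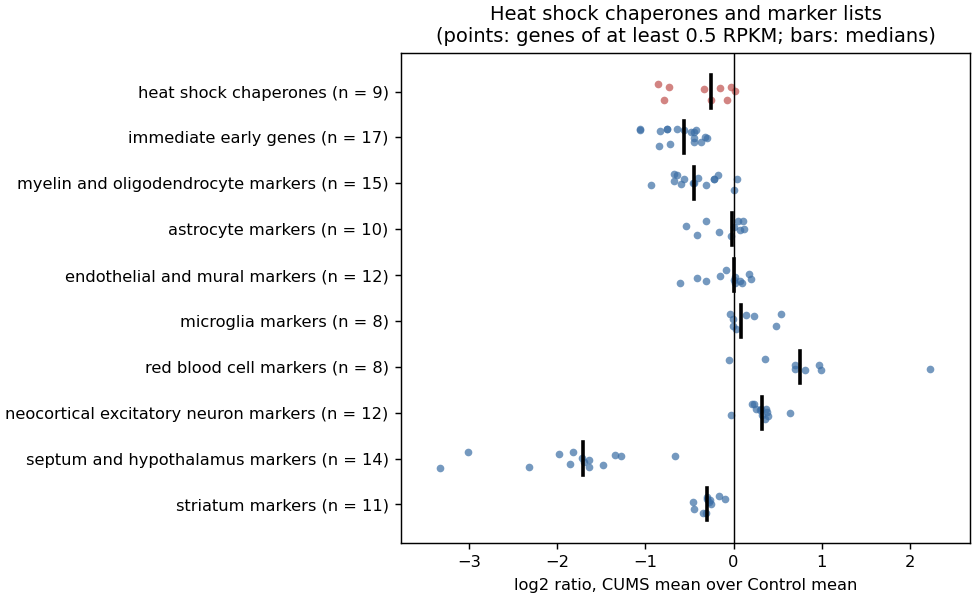
Log2 ratio of CUMS over control for the heat shock chaperones and for marker genes of at least 0.5 RPKM, with 1 point per gene and a bar at each median. Septum and hypothalamus markers (median -1.71), immediate early genes (-0.56) and myelin markers (-0.45) lie left of 0, and red blood cell markers (0.75) and excitatory neuron markers (0.32) lie right of it. The septum and hypothalamus list holds many genes that the study had already listed as lower, and the red blood cell list several that it had listed as higher.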

How the data were processed

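Messenger RNA of the mPFC was sequenced in 4 libraries, 2 for each group, and groups were taken from the sample labels. According to the methods of the study and the submitters' processing notes, poly(A) RNA was read as pairs and aligned to mm10 (GRCm38) with TopHat 1.0.12 and Bowtie 0.11.3, and uniquely aligned reads were counted. The annotation and the use of strand are not given in the sources used here. The authors converted the reads to RPKM and deposited 1 mean per gene and group, with the gene length used. Columns with the authors' own log2 ratio and NOISeq probability were not used. The design text gives n = 2 per group, and no source states how mice were assigned to libraries.

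From the deposited RPKM, log2(CUMS mean / control mean) was computed without a pseudocount. The table gives no read numbers. The depth was estimated from the low values, since 1 fragment in 1 of 2 libraries raises the mean times the gene length by a constant step. The steps of 67.35 and 66.8 RPKM x bases, of which 86.9% of 406 control and 87.5% of 392 CUMS products lay within 0.15 of a whole multiple, give 7423905 fragments for each control library and 7485030 for each CUMS library. These estimates assume equal depth within a group and are below the read numbers of the study, a gap that was not resolved. Exact Clopper-Pearson 95% intervals were computed from them and cover counting error only.

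Genes that reached 0.5 RPKM in 1 group or both entered the counts. The members and lists were chosen with earlier results of these data known, and the level bands were added after the data had been seen. Named are the 9 genes, genes of the chaperone and stress response lists past 1.5-fold, the highest and lowest ratio of the chaperone families, and a fixed set of related genes. Marker lists are given as counts. Hspb8 and Rabepk were named after their values had been seen. Gene spans and promoters are from RefSeq on GRCm38.p6. Shared stretches are exact matches of 100 bases between GENCODE M21 transcripts. Python 3.11.15, pandas 2.3.3 and SciPy 1.17.1 were used. Protein sequences were not analysed here.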

Additional observations from a re-analysis of the deposited data

How the results depend on the processing

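In all, 43 values were recomputed under other settings (a pseudocount of 1 RPKM, CUMS rescaled to an equal median or an equal total, other thresholds). A ratio was called close inside its counting interval, the median inside that of Hspa5, and a count within 1.5-fold. By this rule 42 stayed close to the reported value and 0 changed sign. The exception was the number of chaperones past the fold threshold, which was 3 at 1.5-fold and 0 at 2-fold, where 1.56% of all genes were lower. It was 4 at a threshold below 1.5-fold, where Dnajb1 also passed and 11.3% of all genes were lower by that much. The number of chaperones whose counting interval did not include 0 was 7, and 8 once CUMS was rescaled to an equal median, as the interval of Hsp90ab1 then lay just above 0. Rescaling moved the log2 ratios by 0.0151 (median) and -0.00763 (total). No paired analysis was possible because only group means were deposited. For the same reason, leaving out each library and limma were not run. The estimated depth limits Hspb1 most, and the levels of Hspa1a, Hspa1b, Hspa8, Hsp90aa1 and Hspb1 depend on how reads shared with near-identical genes were counted. Differences between mice within a group could not be seen.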
